A study of Mus musculus with 2 samples.

Results

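The regions described here are places in the mouse genome where TBP ChIP-seq reads piled up although each read could be placed at 2 positions. They were chosen by those reads themselves: a 200 bp tile on chromosomes 1 to 19 had to hold at least 15 distinct 2-alignment reads in library B2 and at least 6 in library B6, and touching tiles were merged. This gave 756 regions, against 13024 found with the same thresholds among reads with 1 alignment. The lists add up to 13780 but are not distinct places, since 247 of the 756 overlap a region of 1-alignment reads. Reads from TBP chromatin immunoprecipitation were sequenced from the embryonic stem cell line V6.5, a mouse hybrid of C57BL/6 and 129 background, with the Abcam antibody AB818. Both libraries belong to 1 group and differ in the time off the feeder fibroblasts (2 passages for B2, 1 passage for B6), in the gel cut (150 to 350 bp against 150 to 300 bp) and in the read length (36 against 26 bases). Separate cultures are not stated in the labels, so the spread between the libraries may be technical. A control library made without antibody was not analysed here.

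TBP, the TATA-binding protein, is the DNA-binding core of TFIID at promoters read by RNA polymerase II, and it also serves RNA polymerases I and III in their own initiation complexes. Many genes that a cell needs in bulk, among them those for histones, transfer RNAs and small nuclear RNAs, exist as near-identical copies. Such copies arise by duplication of a chromosome segment, which carries promoter and flanks along, or by retroposition of a processed RNA, which lands elsewhere without them. Pieces of mitochondrial DNA in nuclear chromosomes, and ribosomal DNA, are further sources of sequence that occurs more than once. An aligner cannot tell identical copies apart, and the usual practice of dropping such reads removes these sites from view. No annotation of build mm8 was at hand, so the regions are named by position only and no sequence is shown.

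B2 held 605561 reads with 2 alignments, 3.47% of its listed reads, and B6 held 216696, or 6.52%. The regions took up 6.33% of the distinct nuclear 2-alignment positions of B2 and 7.77% of those of B6. Of 822819 tiles with any such read, 0.15% met both thresholds. At the edge of the rule, 46 tiles had exactly 15 reads in B2 with enough in B6 and 51 had 14, while 161 had exactly 6 in B6 with enough in B2 and 193 had 5. Most regions were small: the median width was 200 bp and the widest was 4000 bp. Counts ran from 15 to 4175 distinct reads in B2 (median 36) and from 6 to 1997 in B6 (median 13).

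A region was paired with a second copy when at least 80% of its B2 read ends had a matching end at 1 constant distance (a direct copy) or 1 constant sum of positions (an inverted copy), in both directions. This held for 519 of the 756 regions, or 68.7%, of which 351 matched in full. The ends of B6, which did not take part in the search, matched at 80% or more in both directions in 492 of the 519. Each read with 2 alignments is listed at both places, so where 2 places share sequence this match largely follows from the listing. It is not a separate test of the pairs. Copies on the same chromosome with centres at most 1 Mb apart accounted for 201 regions (26.6%). A further 29 (3.84%) had a more distant copy on their own chromosome, 272 (35.98%) had one on another nuclear chromosome and 17 (2.25%) had one in the mitochondrial genome. The remaining 237 (31.3%) had no partner by this rule.

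In B6 the regions had a higher RPM (distinct reads scaled to the distinct nuclear 1-alignment reads of the library) than in B2. The ratio of B6 to B2 RPM had a median of 2.22 (quartiles 1.68 and 2.78) and lay above 1 in 724 of the 756. Regions of 1-alignment reads, found with the same thresholds, had a median ratio of 2.002 (1.64 and 2.44). By class, the median was 2.09 for nearby copies, 2.22 for copies on other chromosomes, 2.37 for regions without a partner and 2.73 for mitochondrial copies. The thresholds used these same counts, so the ratios are a description. A region with just 15 reads in B2 and 6 in B6 has 0.944 and 2.10 RPM, a ratio of 2.22. A region with few reads in B2 could therefore enter only with a ratio above 1. The level of the ratio and the count of 724 depend on this and do not measure a difference between the libraries. Scaled to each library's own 2-alignment reads, the median was 1.05, because those reads make up a larger share of B6.

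**Figure D1:**
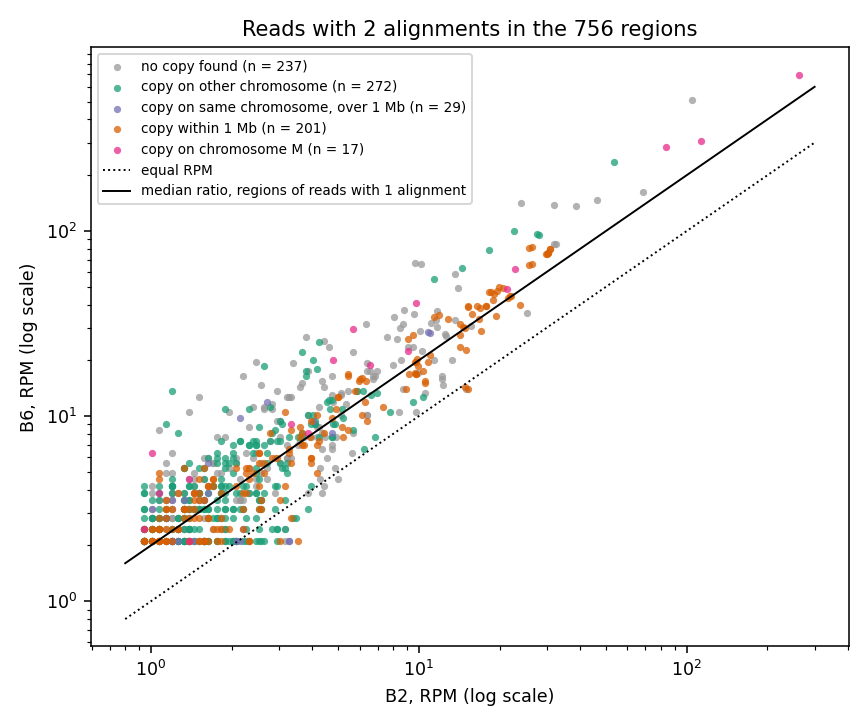
RPM of 2-alignment reads in B2 (x axis) and B6 (y axis), both on log scales, 1 point for each of the 756 regions, coloured by where the second copy lies. The dotted line marks equal RPM and the solid line the median ratio of 2.002 in regions of 1-alignment reads. Most points lie above the dotted line, and 724 have a ratio over 1. The thresholds keep all points at or above 0.944 RPM in B2 and 2.10 RPM in B6.

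The pairing gave 328 distinct pairs, since both copies were often regions in their own right (231 pairs). A read with 2 alignments was listed at both copies: 97.4% of matched positions in B2 and 98.4% in B6 carried the same number of reads in each. Equal counts in both copies are therefore a property of the listing, and these reads cannot say how the signal divides between the copies. With that in view, the value of a pair below is the mean of its copies, and the spread is between the 2 libraries.

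Nearby pairs were short-range duplications. There were 116 of them, 62 direct and 54 inverted, with a median distance of 40726 bp (quartiles 12918 and 137079); 24 lay under 10 kb apart and 83 under 100 kb. The matched stretch around a pair, in which ends of both libraries kept the pair's constant with no gap over 1000 bp, had a median of 1222 bp. In 19 pairs it was over 5 kb. Pairs between nuclear chromosomes numbered 177 and had a median stretch of 146 bp, with 113 under 200 bp. An insertion or deletion between copies interrupts the stretch and shortens it. In the 3 closest pairs the stretch is longer than the distance between the copies, so it reaches from one copy into the other and exceeds the copied segment.

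**Figure D2:**
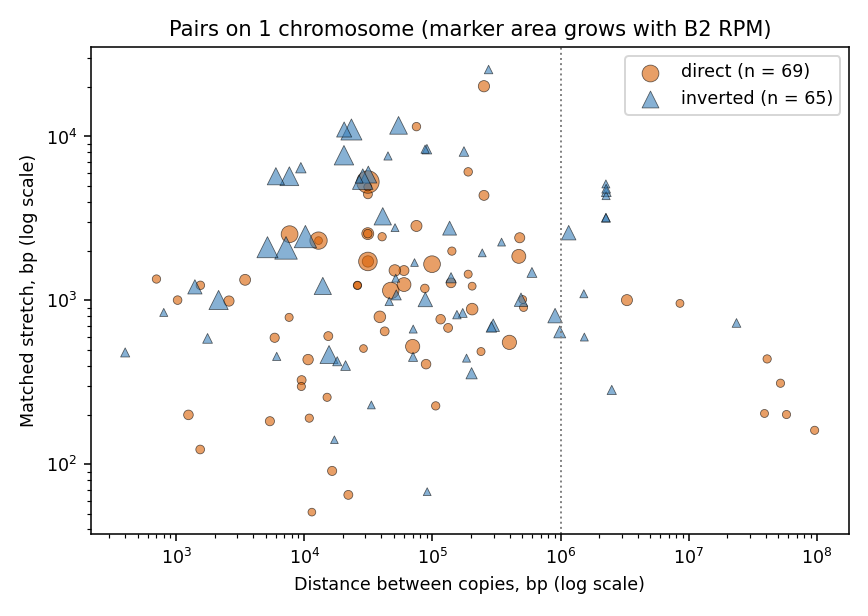
Matched stretch in bp (y axis) against the distance between copies in bp (x axis), both on log scales, for pairs on 1 chromosome, with direct and inverted pairs marked separately and marker area growing with B2 RPM. The dotted line marks the 1 Mb limit between nearby and distant copies; nearby pairs have a median stretch of 1222 bp and reach 25622 bp.

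Nearby copies were unevenly spread over chromosomes. Chromosome 3 had 36 such regions among its 62 (58.1%) and chromosome 17 had 34 among 71 (47.9%). Chromosomes 12 and 13 had 22 each among 47. These counts include both copies of a pair and are not independent, since many of the regions lie in clusters. A single duplication on chromosome 17 held 7 pairs, and 1 on chromosome 3 held 4. Chromosome 11 had 66 regions but 8 with a nearby copy, and chromosome 18 had none among 11. As background, mouse chromosomes 3 and 13 carry clusters of replication-dependent histone genes, whose members resemble each other closely; which of these regions lie at such genes was not examined here.

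By RPM of distinct reads, the strongest pair on 1 chromosome lay on chromosome 3. There chr3:96324201-96325236 and chr3:96331401-96332436 face each other as inverted copies 7200 bp apart. Each copy held 489 distinct reads in B2 and 228 in B6, or 30.8 and 79.8 RPM (mean 55.3 ± 34.7, SD, n = 2 libraries). Nested inside it, chr3:96325441-96326040 and chr3:96330601-96331200 held 419 reads each in B2 and 233 each in B6 (26.4 and 81.6 RPM). The 4 regions thus form 1 mirrored unit around a shared centre. Counting distinct reads caps each position and strand at 1 read, and the order differed with all reads kept. The outer pair then held 811 reads per copy in B2 and 292 in B6, and the nested pair 1200 and 454. The innermost pair of the chromosome 12 duplication described below held 1922 and 469. Further along the chromosome, 3 pairs at chr3:96535801-96538045 and chr3:96543401-96545644 formed another mirrored unit with B2 values between 4.22 and 20.5 RPM and B6 values between 10.5 and 49.4. Its central pair, chr3:96536601-96537200 with chr3:96544246-96544845, held 326 reads in each copy in B2 and 141 in B6. Between these units, chr3:96429389-96445800 and chr3:96459148-96475600 held 4 inverted pairs. The 3 stronger of those 4 were close in level, at 15.99 to 16.99 RPM in B2 and 23.8 to 33.3 in B6.

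Chromosome 12 carried an inverted duplication with 4 pairs, chr12:55631182-55641400 against chr12:55650780-55661000, whose constants differed by at most 8 bp. Its innermost pair, chr12:55640580-55641400 with chr12:55650780-55651600, held 477 distinct reads in each copy in B2 and 214 in B6 (30.02 and 74.9 RPM; mean 52.5 ± 31.7, SD, n = 2). The outermost pair held 398 and 119 reads per copy. Between them lay a pair with 351 and 352 reads in its copies in B2 and 127 in each in B6, and a weak pair with 19 and 7. None of the 4 pairs had more than 7 reads with 1 alignment over both copies and libraries. In the innermost pair there was no 1-alignment read at all. Its 2-alignment ends matched at 100% in both directions in both libraries. Where the aligner cannot tell copies apart, no read can have 1 alignment, so the count of 0 sets no limit on the signal of either copy.

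**Figure D3:**
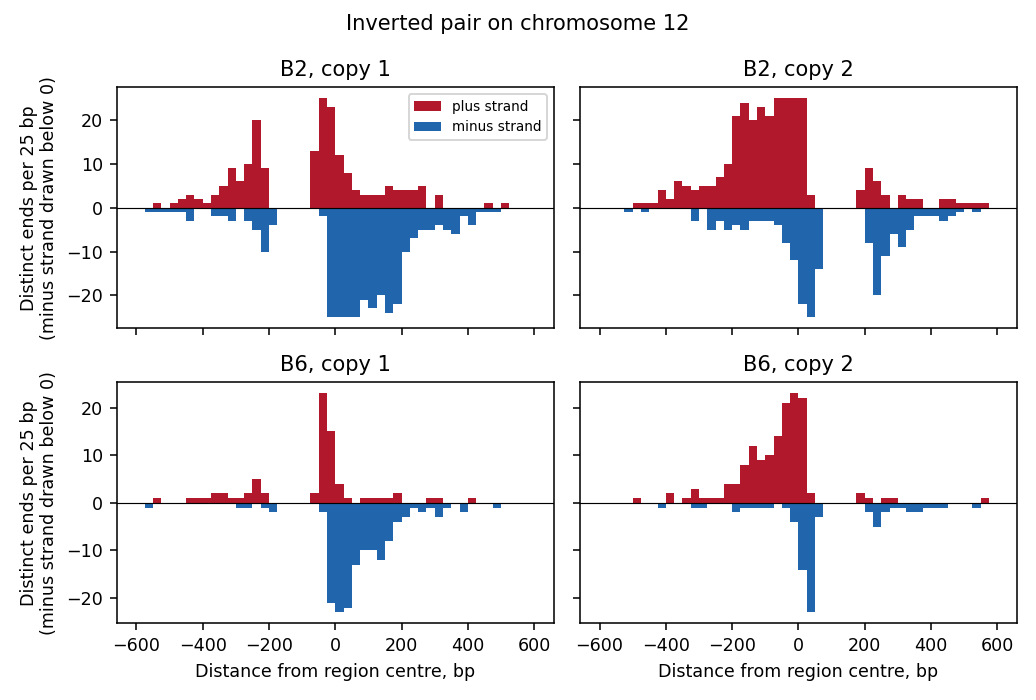
Distinct read ends per 25 bp on the plus strand (above 0) and minus strand (below 0) against the distance from the region centre in bp, for B2 and B6 in both copies of the innermost inverted pair on chromosome 12. Copy 2 is the mirror image of copy 1 with the strands exchanged, as an inverted copy must be when the same 477 (B2) and 214 (B6) reads are listed at both places.

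Chromosome 17 held the duplication with the most pairs: 7 direct pairs over chr17:14697222-14727501 and chr17:14728601-14758800. The copies lie head to tail, and the distance between paired regions varied by 80 bp along the unit, from 31299 to 31379 bp. Its regions were graded in strength. The strongest pair, chr17:14714601-14715625 with chr17:14745976-14747000, held 484 reads in each copy in B2 and 218 in B6 (30.5 and 76.3 RPM; mean 53.4 ± 32.4, SD, n = 2). Next came chr17:14698001-14699200 with chr17:14729380-14730579, with 315 and 142 reads per copy. The 5 other pairs stayed between 1.13 and 6.42 RPM in B2 and between 2.10 and 9.80 in B6. Within the unit the order of the leading 2 pairs was the same in both libraries. All 7 pairs together had 12 reads with 1 alignment in the first copy and 24 in the second.

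**Figure D4:**
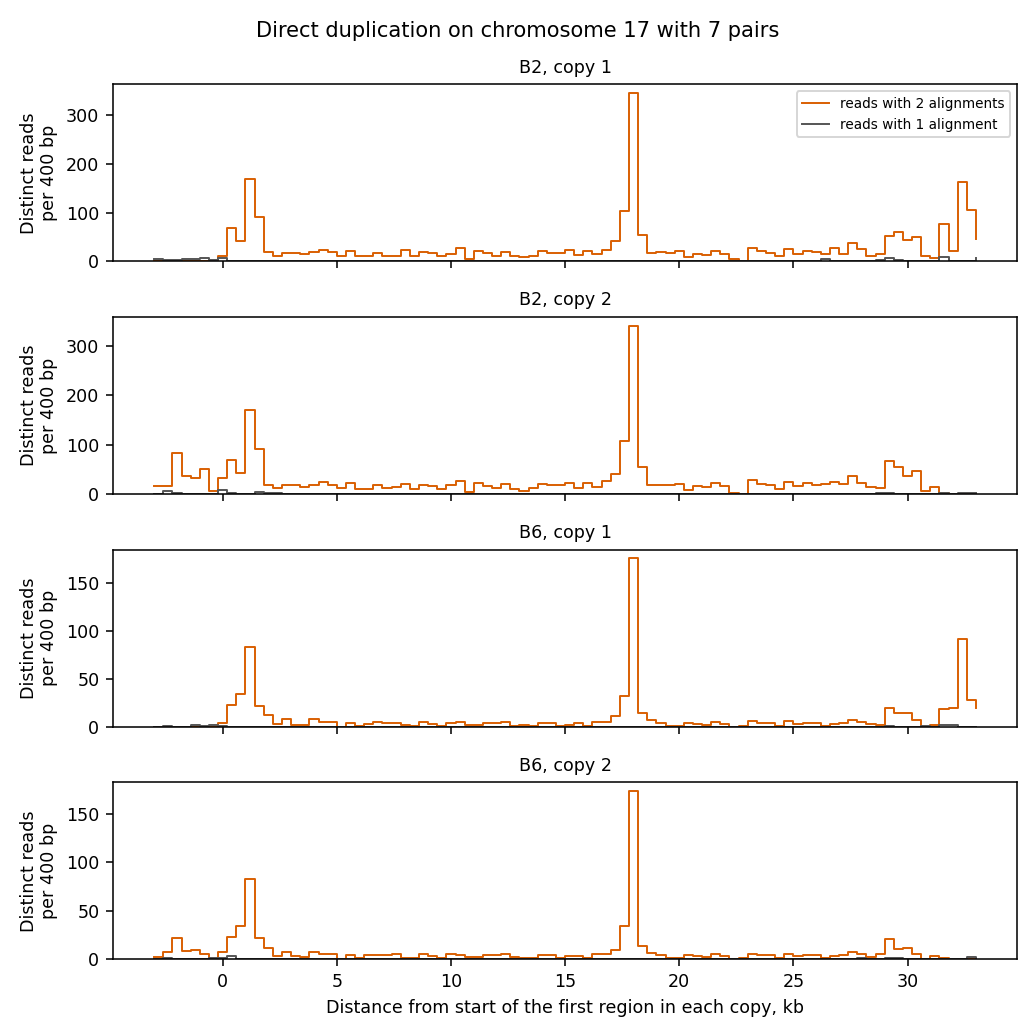
Distinct reads per 400 bp with 2 alignments and with 1 alignment along both copies of the direct duplication on chromosome 17, in B2 and B6, against the distance from the first region in kb. The 2-alignment profile repeats in the second copy, with the highest bin at the same place (346 and 342 reads in the copies in B2, 176 and 174 in B6); because the copies adjoin, the rise at the right end of copy 1 is the start of copy 2.

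A mirrored unit on chromosome 13 differed within itself. Its leading pair, chr13:21817472-21818071 with chr13:21840801-21841400, held 419 reads per copy in B2 and 190 in B6 (26.4 and 66.5 RPM). The pair beside it held 180 and 205 reads in its copies in B2 and 98 and 106 in B6. The outer pair, chr13:21803201-21803400 with chr13:21855433-21855632, went the other way between libraries, with 56 and 60 reads in B2 but 6 in each copy in B6. Its ratio of B6 to B2 RPM was 0.575, the lowest of the 328 pairs. The 6 reads are the lowest B6 count with which a region could be chosen, so the rule cut off lower ratios at this depth. A ratio under 1 occurred in 19 pairs, 13 of them between chromosomes. Some of these lay near the chromosome starts: the 4 inverted pairs of chr11:3025401-3028000 with chr17:3036998-3039584 had ratios between 0.785 and 1.29.

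The longest matched stretches belonged to regions of different strength. On chromosome 13, chr13:17729314-17729600 and its inverted copy chr13:18003714-18004000 shared a stretch of 25622 bp, with 29 reads per copy in B2 and 14 in B6. On chromosome 14, chr14:117807902-117808301 and chr14:118060401-118060800 shared 20257 bp, with 86 and 24 reads per copy. The third, chr17:6363800-6364600 with its inverted copy chr17:6418200-6419000, shared 11691 bp and was stronger, with 283 and 112. At the other extreme, the closest copies were 400 bp apart, at chr2:3249801-3250097 and chr2:3250201-3250497 (40 reads per copy in B2, 8 in B6). Those on chr9:3037001-3037200 and chr9:3037703-3037902 were 702 bp apart, with 26 and 12 reads per copy. Those on chr16:31427141-31427400 and chr16:31427941-31428200 were 800 bp apart, with 21 reads in each copy in B2 and 16 and 15 in B6.

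Around a bound site, plus-strand ends gather to the left and minus-strand ends to the right. In nearby pairs with a matched stretch of at least 1 kb (68 pairs), the median gap between plus-strand and minus-strand ends measured 73 bp for B2 and 78.2 bp for B6, with gaps above 0 in 62 and 56 pairs respectively. In the 21 pairs between chromosomes with a stretch that long, the medians were 2 and 18.8 bp, and 11 were above 0 in each library. Their median ratio of B6 to B2 RPM was 1.28, against 2.03 for the nearby pairs. In both classes, pairs lying side by side in 1 duplication were counted singly here and are not independent. Without the cut on stretch, the classes were closer, but short stretches limit what the gap can show. Of 272 regions with a copy on another chromosome, 245 had a gap above 0 in B2 (median 39 bp) and 213 in B6 (30.5 bp). Of 201 regions with a nearby copy, 184 did in B2 (66.5 bp) and 171 in B6 (76 bp). Over whole classes the ratios were 2.20 (177 pairs between chromosomes) and 2.04 (116 nearby pairs) at the median. These values are a description of the chosen regions, and the gap was measured within 300 bp of each centre. Reads with 2 alignments lie inside the copied stretch, and a minus-strand end is the right end of its read. In a short stretch, a gap of about a read length (36 bases in B2, 26 in B6) can therefore arise without binding. The median stretch between chromosomes was 146 bp, so gaps above 0 in that whole class do not show a bound site. The part of read length in the gaps was not tested.

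Reads with 1 alignment took no part in choosing or pairing the regions, and they fall where the copies differ in sequence. Their distinct counts, summed over both libraries, were compared between the copies of each pair with a two-sided exact binomial test against an equal split, adjusted by Benjamini-Hochberg over the 236 pairs with at least 10 such reads. The split was unequal in 194 of these (82.2%). The test compares reads of these libraries, not conditions, and the intervals below are exact Clopper-Pearson 95% intervals that cover counting error only. An equal split also assumes that both copies offer the same number of positions for such reads. It further assumes that both sequences occur equally often in the cells. Neither assumption was tested.

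Nearby copies had the lowest share of unequal pairs, and most could not be tested. Of the 116 nearby pairs, 40 had no 1-alignment read in either copy, 70 had fewer than 10, and 14 of the 46 tested (30.4%) were unequal. Between chromosomes 158 of 166 were unequal (95.2%), for distant copies on 1 chromosome 6 of 8, and for mitochondrial copies 16 of 16. The copy with more reads held a median of 98.3% of them in the unequal pairs between chromosomes and 89.7% in the unequal nearby pairs. The median number of 1-alignment reads per pair was 77 between chromosomes and 5 for nearby pairs, and the difference between the classes was not tested apart from this depth. B6 alone called 4 of 22 nearby pairs and B2 alone 15 of 43. With 500 and 2000 bp on each side, 29 of 76 (38.2%) and 34 of 92 (37.0%) were unequal. Inside the matched stretch alone, 11 of 43 nearby pairs and 141 of 154 between chromosomes were unequal.

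**Figure D5:**
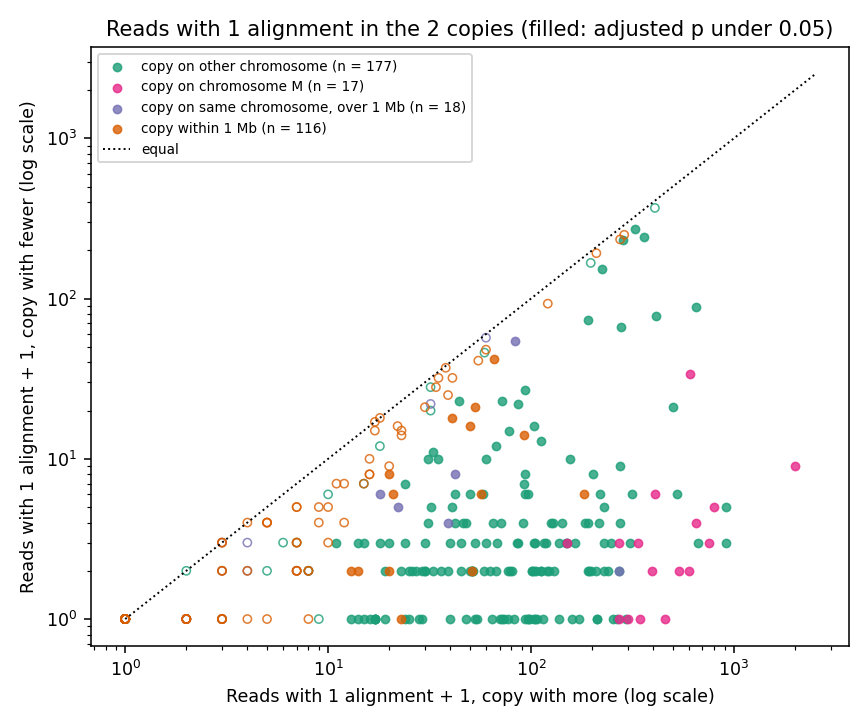
Distinct 1-alignment reads of both libraries plus 1 in the copy with more (x axis) and the copy with fewer (y axis), log scales, 1 point per pair, coloured by class and filled where the adjusted p was under 0.05. Points on the dotted line have equal reads; 158 of 166 tested pairs between chromosomes and 14 of 46 tested nearby pairs are filled.

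Among the strong nearby pairs, the split was often near even or too thin to read. The pair chr3:96325441-96326040 with chr3:96330601-96331200 had 23 and 27 single-alignment reads in B2, and 14 and 9 in B6. That put 50.7% in the first copy (interval 38.7 to 62.6; exact binomial, adjusted p = 1). The outer pair of that unit had 9 and 1 in B2 and 2 in each copy in B6 (exact binomial, adjusted p = 0.0691). Well-covered nearby pairs also missed the threshold. For chr6:128729601-128730000 and chr6:128768486-128768885 the counts were 191 and 222 in B2 and 58 and 65 in B6, or 46.5% in the first copy (42.2 to 50.8; exact binomial, adjusted p = 0.129). For chr12:70077786-70078000 and chr12:70279986-70280200 they were 171 and 190, then 62 and 84, or 46.0% (41.6 to 50.4; exact binomial, adjusted p = 0.0896). These intervals limit the first copy of each to between 41.6% and 50.8%, and do not show that the copies are equal.

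Of the 14 nearby pairs with an unequal split, 8 kept the call and the direction with 2000 bp added on each side, and 11 did so inside the matched stretch. The inverted pair chr3:96477601-96477800 and chr3:96426522-96426721 kept both, with 1 and 40 reads in B2 and 0 and 10 in B6 (exact binomial, adjusted p = 9.40e-14), and 23 and 106 in the wider window. So did chr7:27638201-27638400 and chr7:27547150-27547349, with 11 and 68, then 2 and 23 (exact binomial, adjusted p = 3.03e-15), and 74 and 200 in the wider window. The calls of 4 others depended on the window or the library. On chromosome 3, chr3:96420048-96420247 held 135 of these reads in B2 and 46 in B6, while its direct copy 1247 bp away, chr3:96418801-96419000, held 4 and 1 (2.69% in the latter; exact binomial, adjusted p = 1.74e-46). Their 2-alignment counts were 53 and 47 in B2 and 18 and 17 in B6. With 2000 bp added on each side, the counts of these 2 neighbours were 493 and 523 (exact binomial, adjusted p = 0.415), since the windows then overlap. On chromosome 17, chr17:6418200-6419000 held 38 and 11 reads against 8 and 7 in chr17:6363800-6364600 (23.4% in the second named, interval 13.8 to 35.7; exact binomial, adjusted p = 3.57e-05). In B6 alone that pair had an exact binomial adjusted p of 0.525, and with 2000 bp on each side the order turned, with 77 reads at the copy that had fewer and 56 at the other (exact binomial, adjusted p = 0.105). The inverted pair chr13:21742131-21742800 and chr13:21757731-21758400, among the stronger ones at 18.5 RPM in B2 and 47.1 in B6, had 24 and 44 reads in B2 and 17 and 21 in B6 (exact binomial, adjusted p = 0.0311). It too lost the call and turned with the wider window, at 127 and 101 reads (exact binomial, adjusted p = 0.122). For the closest pair, on chromosome 2, the call (exact binomial, adjusted p = 0.00415) came from outside the matched stretch, inside which the copies held 13 and 11 reads (exact binomial, adjusted p = 0.847).

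The 3 pairs farthest apart on 1 chromosome were unequal. On chromosome 11, 58007280 bp separate chr11:48597201-48597400 from chr11:106604481-106604680. The first copy held 0 single-alignment reads in B2 and 1 in B6, the second 183 and 86 (exact binomial, adjusted p = 2.59e-78). On chromosome 4, the copies chr4:46472001-46472242 and chr4:142655959-142656200 are 96183958 bp apart and held 12 and 5 reads in B2 and 5 and 0 in B6 (exact binomial, adjusted p = 0.0211). On chromosome 8, chr8:72476201-72476400 and chr8:20401515-20401714 held 4 and 19, then 0 and 2 (exact binomial, adjusted p = 0.00121).

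Between chromosomes, the 2 pairs with the highest RPM led to a single place on chromosome 17. The stretch chr17:39454299-39456573 was the partner in 4 pairs, each with a different chromosome. The strongest of them, chr6:3150601-3151600 with chr17:39454565-39455564, held 850 and 877 reads in B2 and 674 and 710 in B6. Its 1-alignment reads numbered 45 and 309 in B2 and 42 and 342 in B6, so the chromosome 17 copy had more in both libraries (exact binomial, adjusted p = 1.89e-106). In the second, chr1:56726401-56727000 held 3 and 2 reads with 1 alignment against 285 and 240 in its chromosome 17 copy (exact binomial, adjusted p = 4.64e-147). The third, chr16:18446601-18447000, held 0 and 2 against 470 and 448 (exact binomial, adjusted p = 1.13e-269). The same direction held in chr11:103888801-103889200, whose partner lies just outside that stretch at chr17:39451077-39451476, with 3 and 1 against 517 and 397 (exact binomial, adjusted p = 2.10e-264). The fourth, chr11:116314801-116315000, held 1 and 1 against 359 and 309 (exact binomial, adjusted p = 3.61e-195). Except in the chromosome 6 pair, the copy outside chromosome 17 thus held 2-alignment reads with at most 5 of 1 alignment over both libraries. How often each of these sequences occurs in the cells was not measured, and its part in the splits was not tested. The p-values therefore do not compare places known to occur once each.

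A different picture came from chr7:6882001-6882600 and its copy chrX:165330693-165331292, the third by RPM. Both copies had many 1-alignment reads, 179 and 202 in B2 and 93 and 123 in B6. The chromosome 7 copy held 45.6% (41.5 to 49.7; exact binomial, adjusted p = 0.0406). The pair with the most such reads that did not pass was chr11:79520745-79521000 with chr16:13350801-13351056, at 246 and 263 in B2 and 121 and 144 in B6 (47.4%, 43.8 to 51.0; exact binomial, adjusted p = 0.183). Its matched stretch is 80 bp and holds 155 and 143 of those reads.

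The pairs with mitochondrial DNA were unequal without exception among the 16 tested. Cells hold many mitochondrial genomes, as background, but template numbers were not measured here and their part in the split was not tested. The region chr4:79474401-79476600 held 1330 reads with 2 alignments in B2 and 813 in B6. It had 5 and 3 reads with 1 alignment, against 1372 and 627 in the mitochondrial copy. In chr13:85599801-85600800 they were 2 and 2 against 528 and 272 (exact binomial, adjusted p = 1.92e-230). Near-identical splits came from chr12:60180801-60181200 (3 and 0 against 431 and 216; exact binomial, adjusted p = 6.61e-187) and chr9:24495401-24495800 (1 and 0 against 410 and 191; exact binomial, adjusted p = 2.14e-177). A chromosome 18 region had 2 and 0 against 505 and 244 (exact binomial, adjusted p = 2.25e-219). The mitochondrial copy held between 94.8% and 100% of the reads in all 16.

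Places used by several pairs were few. The pairs joined 563 places, of which 527 were in 1 pair, 25 in 2 and 11 in 3 or more. The most connected were chr11:3036851-3042942 and chr5:33040601-33046200, which shared 8 pairs with each other. These 8 pairs lie side by side and are not independent; by the rule below they form 3 units. Counting pairs with the same chromosomes and orientation, a constant within 200 bp and at most 100 kb apart as 1 unit, the 328 pairs fell into 290 units, and the 116 nearby pairs into 89.

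Regions without a partner were the remainder of the rule. They held a median of 43 reads in B2 and 17 in B6, and 115 of the 237 (48.5%) overlapped a region of 1-alignment reads, against 111 of 272 (40.8%) for regions with a copy on another chromosome, 17 of 201 (8.46%) for those with a nearby copy and 247 of 756 (32.7%) over all. The strongest were chr17:39454201-39456600 with 1662 reads in B2 and 1451 in B6 (the same place as the chromosome 17 partner of 4 pairs above, unpaired here because no 1 place matched 80% of its ends), chr5:3000001-3002600 with 1094 and 465, and chr2:98467001-98468200 with 735 and 421. A region whose reads scatter over several second places cannot meet the rule. Of the B2 ends in the first of these, 51.9% matched at the place that was best in both directions. The highest share at any place checked, in this direction alone, was 64.4%.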

How the data were processed

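TBP ChIP-seq was analysed in 2 libraries of 1 group, B2 (replicate 1) and B6 (replicate 2). The deposited values are other than counts per feature: every line gives 1 position in build mm8 of the mouse genome, signed by strand. Bowtie made the alignments, per the submitters' processing notes, and per the file headers it ran with -e 70, -k 2, -m 2, -n 2 and -l 36 (B2) or 26 (B6). No Bowtie version was given by the headers or notes used here. The authors thereby dropped reads with more than 2 alignments and listed both positions of the others. Positions were read as 0-based, since the last base reached on chromosome M was 16299 in both libraries; coordinates are printed 1-based.

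B2 held 16848742 reads with 1 alignment and B6 3106240. After keeping 1 read per signed position, 15887305 and 2856259 nuclear reads remained, the base of RPM. Each 5 prime end was moved 60 bp inward and counted in 200 bp tiles. Partners were searched from runs of 3 gaps between ends, and the best 20 candidates were checked. The match in both directions was required after chance matches to densely covered places had been seen. The members and the rule for the pairs named were chosen with earlier results of these data known. That rule took the 8 strongest pairs on 1 chromosome, the 3 farthest and 3 closest, the 3 longest stretches, the 3 strongest between chromosomes, the 8 with the lowest and 3 with the most reads without a call, the 3 strongest regions without a partner and the largest units; further pairs were chosen after their values were seen. Reads of both copies were compared by an exact binomial test, and the pairing and the test were tested on simulated data. Python 3.11.15, NumPy 2.4.6, SciPy 1.17.1, pandas 2.3.3 and matplotlib 3.10.9 were used. Intervals cover counting error only, because reads amplified by PCR lack molecular identifiers and may repeat 1 molecule.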

Additional observations from a re-analysis of the deposited data

Results flagged for a closer look

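Chromosomes X and Y lay outside the rule and gave a signal by the same thresholds; a control library was not analysed here. Chromosome X had 37 regions of 2-alignment reads, which held 2148 (B2) and 930 (B6) distinct reads. Chromosome Y had 3 regions, with 71 and 20.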

How the results depend on the processing

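The number of regions depended on the thresholds: at least 10 and 4 reads gave 1343 against 756, and a threshold in 1 library alone gave 1130 to 1303. At least 20 and 8 reads gave 519, all reads kept 938, and ends moved by 40 or 80 bp 815 and 708. Regions with a partner numbered 412 at 95% and 666 at 50% matched ends, 488 with the ends of B6, 563 where positions could differ by 1 bp, and 616 where, as chosen after seeing the data, 1 direction sufficed. The median ratio of B6 to B2 RPM was 1.75 with all reads kept and 1.05 when scaled to 2-alignment reads. The median matched stretch was 320.5 bp, or 297.5 and 369 bp with gaps up to 500 and 2000 bp. Unequal pairs numbered 136 without B2 and 186 without B6, and 173 to 231 under the other settings, of which the limit to the matched stretch (173) and the removal of chromosome M (178) were added after seeing the data. Nearby unequal pairs were 4 of 22 without B2, and 29 of 76 and 34 of 92 with 500 and 2000 bp on each side, against 14 of 46. No paired analysis was possible because both libraries belong to 1 group. Depth limits the copy test: 92 of 328 pairs had fewer than 10 reads with 1 alignment.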
